A study of Mus musculus with 16 samples.

Results

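Neutrophils sorted from the lung of wild type (WT) mice without any procedure (0h) were compared with neutrophils sorted from the blood of WT mice under the same condition. The comparison used 6 of the 24 RNA sequencing libraries of the series, which came from 4 of its 16 samples. The mice belonged to a study of sepsis after cecal ligation and puncture (CLP), whose surgery was done in male mice aged 8 to 12 weeks, and the 0h mice had no surgery. Cells carrying Ly6G, CD11b and CD45.2 on their surface had been sorted in both tissues. Each group had 3 count files, named here blood 1a, blood 1b and blood 2, and lung 1a, lung 1b and lung 2. Files 1a and 1b belonged to the same sample in the labels, while the study speaks of triplicates. Whether files 1a and 1b came from separate animals is not given in either source, so p-values measure only the spread between these libraries. The series also holds libraries labelled αD KO, from mice whose gene for the integrin subunit αD (Itgad) was deleted, and libraries taken 12 hours after CLP. These were used only to set the WT baseline values beside them.

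Neutrophils are short-lived white blood cells that leave the bone marrow, circulate in blood and enter tissues. The lung holds many of them even without infection, because they stay for a time in its narrow capillaries, pressed against the endothelium. A lung has to be broken up into single cells before sorting while blood does not, and a lung digest also holds free RNA and fragments of alveolar, airway and endothelial cells. A gene that is higher in lung neutrophil libraries can therefore be a gene of the neutrophil or a gene of the lung. In these bulk libraries, fewer cells of a type and less RNA per cell cannot be told apart.

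The depth was 5753476 to 29433699 counts in the 3 blood libraries and 13210468 to 27402811 counts in the 3 lung libraries. Blood 1b and lung 1b had 38499 and 38844 genes with a count, against 17132 to 27484 genes in the other 4 libraries. The 20 neutrophil identity genes had counts in all 6 libraries. S100a8, an alarmin of the neutrophil cytosol, was at 11470, 8852 and 14770 counts per 1000000 counts of the library (CPM) in blood 1a, 1b and 2, and at 13430, 11160 and 14740 CPM in lung 1a, 1b and 2. Csf3r, the receptor for the growth factor G-CSF, was at 10920, 4336 and 11360 CPM in blood and at 11350, 6861 and 10890 CPM in lung. Both genes overlapped between the tissues. Ly6g, which encodes the antigen used in the sort, was lower in all libraries, at 18.4 to 73.9 CPM. Itgad was at 2.43 to 3.16 CPM in WT blood and at 1.35 to 3.66 CPM in WT lung. In the libraries labelled αD KO it was higher, at 50.7 to 96.4 CPM in blood and 17.7 to 67.8 CPM in lung, which goes against the direction that a deletion label would give, although a count over the whole gene does not show which exons the reads came from.

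Few genes were called different between the tissues from all 6 libraries, and the number depended on the tool and on the libraries used. By edgeR's quasi-likelihood test, 0 of 15967 genes tested (0.0%) passed an adjusted p under 0.05 with a log2 fold change over 1 in either direction, and the smallest adjusted p was 0.57. With no adjustment and a limit of 0.05, 237 genes (1.48%) were higher and 169 genes (1.06%) lower in lung, 406 in all. DESeq2's Wald test called 28 genes higher in lung (0.175%) and 19 lower (0.119%) at the same limits. limma voom with quality weights called 16 genes (0.1%), of which 13 were among the 47 of DESeq2. With the library number as a replicate block, edgeR called 0 genes and DESeq2 called 68 genes higher (0.426%) and 46 lower (0.288%). Without both 1b libraries edgeR also called 0 genes, but 1508 of 14564 tested had an unadjusted p under 0.05. DESeq2 then called 107 higher (0.735%) and 130 lower (0.893%), so a low count of calls from all 6 libraries does not show that few genes differ. The 3 lung values lay above the 3 blood values for 564 of all genes tested (3.53%) and below them for 343 (2.15%). An exact two-sided permutation test of 3 against 3 libraries cannot go below 0.1, so no single gene could be tested that way at 0.05. The median log2 fold change over all genes tested was -0.08. The genes described below that were called by DESeq2, or that had an edgeR p under 0.05, were chosen after their values were seen, apart from a fixed set of marker genes.

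The genes called by DESeq2 fell into separate groups. Of the 28 higher in lung, 7 belonged to lists of neutrophil programmes (Ccrl2, Cxcl1, Egr1, Il1a, Il23a, Nfkbiz and Tnfaip3), 3 to lists of lung structural cells (Scgb1a1, Bpifa1 and Calcrl), 0 to lists of other blood or immune cells and 18 to no list. Of the 19 lower in lung, 5 belonged to lists of other blood cells (Ccr2, F13a1, Pf4, Ppbp and Gp6), 0 to neutrophil lists and 14 to no list. All 28 and 18 of the 19 did not overlap between the tissues, against 3.53% and 2.15% of all genes. The genes were called on these same libraries, so that this separation is largely fixed by the choice. Leaving out 1 library at a time, DESeq2 kept 9 to 26 of the 28, and all 28 kept their direction in each of the 6 fits. Without lung 2 only 9 of the 28 were kept. The 7 that passed in all 6 fits were Egr1, Gm37352, Gm44292, Il23a, Scgb1a1, mt-Co1 and mt-Cytb. Of the 19 lower genes 1 to 18 were kept, 1 of them without blood 2 and 2 without lung 1a or without lung 2, and only Ccr2 passed in all 6 fits. Under the replicate block DESeq2 lost Tnfaip3, Ccrl2 and Gm29216 of the higher genes, and Gp6, Abhd12b and Gm45205 of the lower ones.

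**Figure D1:**
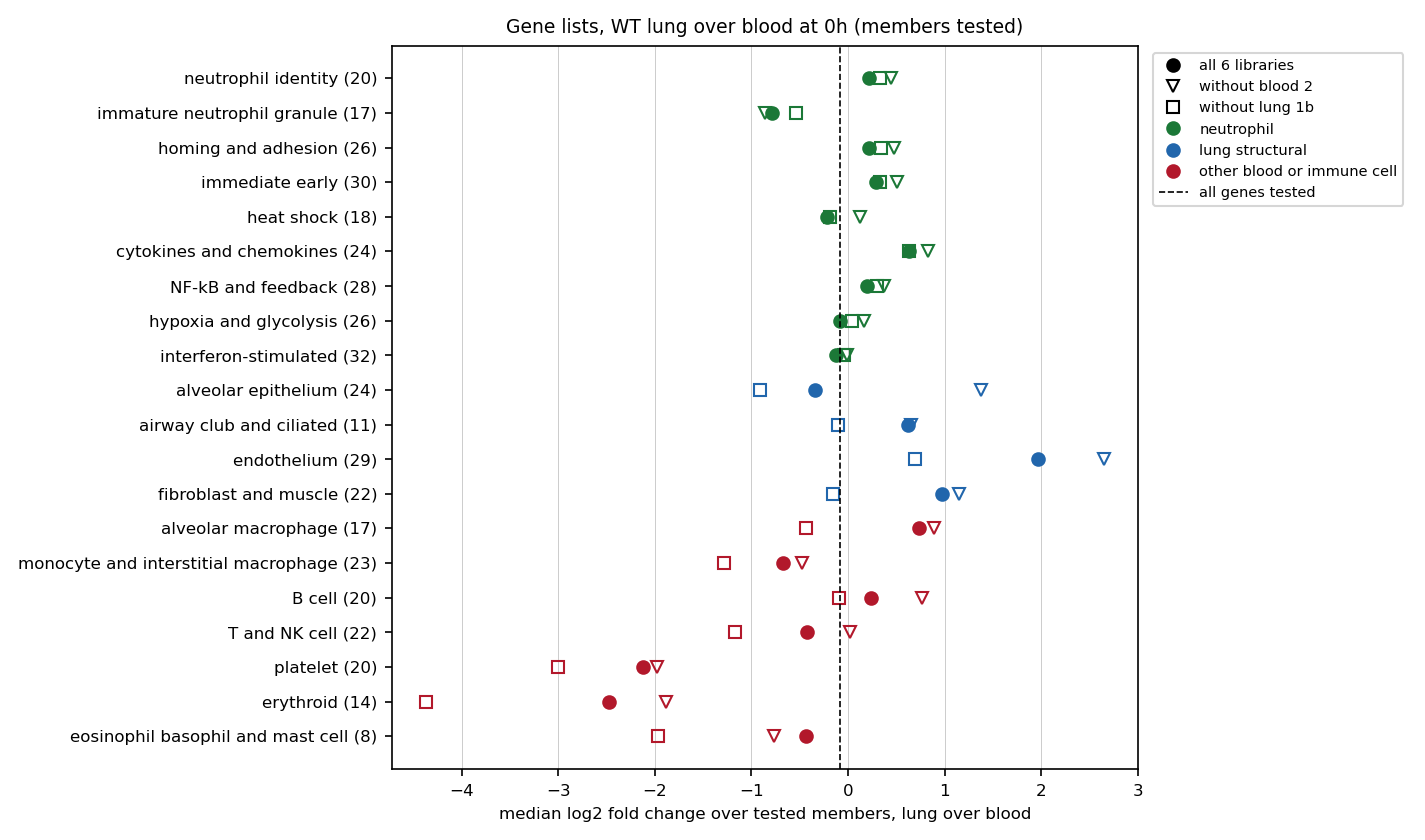
Median log2 fold change of lung over blood (x axis) over the tested members of each of 20 gene lists (rows, number tested in brackets), from all 6 WT libraries (filled circles), without blood 2 (triangles) and without lung 1b (squares). Colours mark the kind of list, and the dashed line is the median over all genes tested, -0.08. The endothelium list has the highest median and the erythroid and platelet lists the lowest, while the median of the alveolar epithelium list moves from -0.34 to 1.38 without blood 2.

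Among the 28 genes called higher in lung, the largest fold changes were in genes of airway secretory cells. Scgb1a1, the secretoglobin that club cells release into the airway lining, was at 0.290, 0.450 and 0.421 CPM in blood 1a, 1b and 2. It was at 37.3, 39.7 and 6.92 CPM in lung 1a, 1b and 2, so that the lowest lung library was far above all blood libraries. The mean was 28.0 ± 18.3 CPM (SD, n = 3) in lung and 0.387 ± 0.0849 CPM (SD, n = 3) in blood. The gene lies at chr19:9083636-9087958 on the minus strand (GRCm38). Its log2 fold change was 6.16 ± 0.86 (SE) by edgeR, with a DESeq2 adjusted p of 2.09e-11 and an edgeR unadjusted p of 0.000198. Bpifa1, a secreted defence protein of the upper airway epithelium, was at 0, 0.180 and 0 CPM in blood and at 3.38, 5.10 and 1.86 CPM in lung. These were 2 counts in blood and 235 counts in lung, a ratio of 103.7 with a 95% interval of 28.4 to 861 that covers counting error only. Cyp2f2, a club cell cytochrome, was at 0, 1.26 and 0 CPM in blood and at 8.00, 4.17 and 0.769 CPM in lung, and these values overlapped. Summed over 5 club cell genes, the level was 0.472 to 5.75 CPM in blood and 10.2 to 52.0 CPM in lung. Over the whole airway list, 11 of 16 members were tested, 8 were fitted higher in lung, 2 passed DESeq2 against 0.175% of all genes, and the median log2 fold change was 0.62. With the replicate block 3 passed, against 0.426% of all genes, the added one being Cyp2f2 with an adjusted p of 0.0160. The median was -0.10 without lung 1b and 2.70, with 3 DESeq2 calls against 0.735% of all genes, without both 1b libraries.

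Alveolar transcripts did not separate the tissues, and blood 2 carried more surfactant transcripts than any lung library. Sftpc, the surfactant protein C gene of alveolar type II cells, was at 2.07, 0.450 and 205.9 CPM in blood and at 61.3, 33.8 and 13.8 CPM in lung. Its log2 fold change was -0.80 ± 1.66 (SE) by edgeR, and the sign turned without blood 2 (4.85 by edgeR, 4.70 with an adjusted p of 9.31e-05 by DESeq2) and with the replicate block (2.84). Sftpa1, another surfactant protein gene, was at 0, 4.14 and 40.5 CPM in blood and at 11.6, 11.4 and 2.27 CPM in lung. Ager, a receptor abundant on alveolar type I cells, was at 4.86, 2.07 and 41.1 CPM in blood and at 12.9, 12.7 and 4.98 CPM in lung. In all 3 genes blood 2 was the highest of the 6 libraries. Summed over 4 surfactant protein genes, the level was 3.01, 8.18 and 254.0 CPM in blood and 76.1, 48.9 and 16.6 CPM in lung. Blood 2 did not carry club cell genes in the same way, since their sum there was 0.547 CPM. Of the 26 genes of the alveolar list 24 were tested, 10 were fitted higher in lung and 0 passed DESeq2, with a median of -0.34. Without blood 2, 18 of 24 were fitted higher, 1 passed DESeq2 and the median was 1.38. Sftpa1 overlapped between the other libraries too, since blood 1b was above lung 2.

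Among the 4 lung structural lists, the endothelial one had the highest median over all 6 libraries, while the airway median was higher (2.70) without both 1b libraries. All 29 members were tested and 27 were fitted higher in lung, with a median of 1.97, and 12 did not overlap between the tissues, against 3.53% of all genes. The median was 2.65 without blood 2, 0.69 without lung 1b and 1.24 without both 1b libraries. At an unadjusted edgeR p under 0.05 there were 4 higher members, against 1.48% of all genes, and 1 passed DESeq2, against 0.175%. With the replicate block 5 passed, against 0.426%, and without blood 2 or without lung 1b 0 passed. Epas1, a hypoxia-inducible factor subunit abundant in lung endothelium, was at 0.0726, 1.35 and 5.73 CPM in blood and at 10.4, 37.6 and 8.75 CPM in lung. Tmem100, a membrane protein of lung endothelium, was at 0.0363, 0.719 and 3.66 CPM in blood and at 7.25, 18.6 and 6.92 CPM in lung. Cldn5, a tight junction protein, was at 0.218, 1.08 and 2.74 CPM in blood and at 3.57, 9.17 and 2.83 CPM in lung. In these 3 genes lung 1b was the highest library and blood 2 the highest blood library, so that blood 2 came closest to the lung values. Their edgeR adjusted p was 0.9995. With the replicate block DESeq2 called Epas1 (log2 fold change 4.03, adjusted p 0.00141) and Tmem100 (4.06, adjusted p 0.00442) but not Cldn5 (adjusted p 0.301). No other alternative called Epas1 or Tmem100, whose adjusted p over the other DESeq2 fits ran from 0.368 to 1.00 and from 0.293 to 1.00, and without lung 1b their edgeR log2 fold changes were 1.89 and 2.16. Cdh5, the cadherin of endothelial junctions, overlapped, at 0.0363, 2.07 and 0.842 CPM in blood and 1.16, 5.62 and 1.09 CPM in lung. Vwf, a clotting factor that endothelium and megakaryocytes make, was at 6.46, 15.7 and 6.70 CPM in blood and at 5.78, 15.2 and 2.67 CPM in lung.

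Calcrl, a receptor for adrenomedullin and CGRP, was the endothelial list's only DESeq2 call without the block and had another pattern across libraries. It was at 11.3, 14.1 and 16.3 CPM in blood and at 39.6, 48.1 and 35.8 CPM in lung, a log2 fold change of 1.45 ± 0.31 (SE) by edgeR with a DESeq2 adjusted p of 0.0190. Ramp2, the partner protein of that receptor in endothelium, was at 0.290, 0.719 and 2.23 CPM in blood and at 3.90, 14.5 and 2.63 CPM in lung. The 3 blood libraries held Calcrl at a steady level while Ramp2 differed several-fold among them. Lung 1b stood apart from the other lung libraries for Ramp2 but not for Calcrl.

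**Figure D2:**
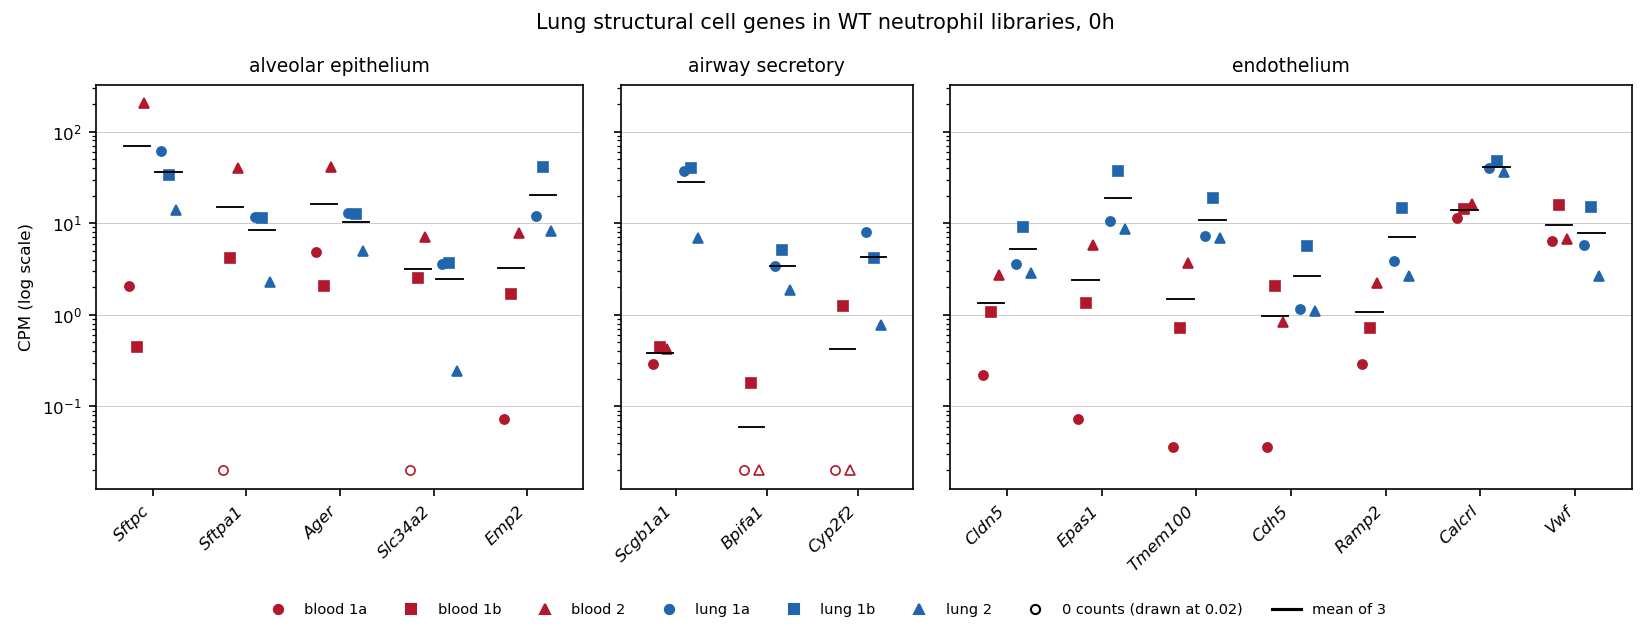
CPM on a log scale (y axis) of named genes of alveolar epithelium, airway secretory cells and endothelium in the 3 WT blood libraries (red) and the 3 WT lung libraries (blue) at 0h, where the shape gives the library, open symbols mark 0 counts and bars mark the mean of 3 libraries. Blood 2 is the highest library for Sftpc, Sftpa1 and Ager, while all lung libraries lie above all blood libraries for Scgb1a1, Bpifa1, Epas1, Tmem100, Cldn5, Ramp2 and Calcrl.

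The medians of the fibroblast and alveolar macrophage lists changed with the 1b libraries. In the fibroblast and muscle list 20 of 22 tested members were fitted higher in lung, with a median of 0.97, which was -0.16 with 9 of 22 fitted higher once lung 1b was left out, and 0.35 with 15 of 21 fitted higher once both 1b libraries were left out. DESeq2 called 0 of its members, but 3 without blood 2, where 21 of 23 were fitted higher and 0.0859% of all genes were called higher. Col1a1, the chain of type I collagen, was at 0.944, 3.06 and 1.98 CPM in blood and at 2.06, 7.16 and 1.62 CPM in lung. In the alveolar macrophage list 14 of 17 tested members were fitted higher with a median of 0.73, which was -0.43 with 7 of 17 fitted higher without lung 1b, and 0.55 with 9 of 14 fitted higher without both 1b libraries. Of the tested members 3 did not overlap (Car4, Olr1 and Plet1), against 3.53% of all genes, and 2 had an unadjusted edgeR p under 0.05 (Olr1 and Itgax), against 1.48%. Marco, a scavenger receptor of alveolar macrophages, was at 0, 0.450 and 0 CPM in blood and at 0.413, 1.29 and 0 CPM in lung. C1qa, a complement gene of tissue macrophages, was at 0.726, 1.53 and 0.295 CPM in blood and at 0.225, 1.85 and 0.0405 CPM in lung. Both genes were low in the 6 libraries, while the sum over the alveolar macrophage list was 131.4 to 940.3 CPM in blood and 316.6 to 511.7 CPM in lung. The highest members in the lung libraries were Chil3, Itgax and Siglecf, of which Chil3 and Itgax also stood on neutrophil lists.

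Genes of monocytes, platelets and red cells were mostly fitted lower in lung neutrophils. Of 23 tested monocyte and interstitial macrophage genes 19 were fitted lower, 5 with an unadjusted edgeR p under 0.05 (1.06% of all genes) and 2 called by DESeq2 (0.119% of all genes), or 4 with the replicate block. Ccr2, the chemokine receptor by which classical monocytes leave the marrow, was at 21.0, 28.0 and 57.1 CPM in blood and at 2.67, 4.53 and 1.22 CPM in lung. All lung values lay below all blood values, with a log2 fold change of -3.69 ± 0.63 (SE) by edgeR, a DESeq2 adjusted p of 4.89e-06 and an unadjusted edgeR p of 0.000661. F13a1, a clotting factor chain made by monocytes and megakaryocytes, was at 48.7, 3.69 and 117.2 CPM in blood and at 0.601, 3.14 and 0.364 CPM in lung. The log2 fold change was -5.21 ± 1.32 (SE) with a DESeq2 adjusted p of 0.00107, and blood 1b lay close to lung 1b. The Ms4a family of membrane proteins accounted for 4 further calls that no list held. Among them Ms4a4a was at 3.45, 4.76 and 17.0 CPM in blood and at 0.150, 0.258 and 0.648 CPM in lung, with a DESeq2 adjusted p of 6.87e-05. The monocyte genes Csf1r (303 to 835 CPM in blood, 444 to 718 CPM in lung) and Ly6c2 (49.4 to 135.5 CPM in blood, 69.2 to 99.3 CPM in lung) overlapped between the tissues.

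Of all lists, the platelet list had the most members with an unadjusted edgeR p under 0.05. Of 20 genes tested 18 were fitted lower in lung, 15 had an unadjusted edgeR p under 0.05, 11 did not overlap and 3 were called by DESeq2. The shares of all genes on the lower side were 1.06%, 2.15% and 0.119%. The list had a median log2 fold change of -2.12. Pf4, a chemokine stored in platelet granules, was at 24.2, 10.2 and 24.8 CPM in blood and at 2.55, 6.49 and 2.15 CPM in lung, a log2 fold change of -2.36 ± 0.57 (SE) with a DESeq2 adjusted p of 0.0280. Ppbp, another platelet chemokine, was at 33.9, 13.6 and 26.8 CPM in blood and at 3.79, 7.06 and 3.20 CPM in lung, with a DESeq2 adjusted p of 0.00107. Gp6, the platelet collagen receptor, was at 4.61, 1.44 and 2.86 CPM in blood and at 0.526, 0.464 and 0.243 CPM in lung, and DESeq2 gave it no adjusted p with the replicate block. Blood 1b and lung 1b were the closest to each other of the libraries of the 2 tissues for Pf4 and Ppbp. The DESeq2 calls among the 20 platelet genes turned on the libraries, since 15 passed without both 1b libraries (0.893% of all genes were called lower in that fit), 5 with the replicate block (0.288%) and 0 without blood 2, where only 1 gene of all 24453 tested (0.00409%) was called lower.

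Red cell genes followed the platelet genes in direction but not in their spread. All 14 tested members of the erythroid list were fitted lower in lung, with a median of -2.47, and 0 passed DESeq2 (1 with the replicate block). At an unadjusted edgeR p under 0.05 there were 3, against 1.06% of all genes. Without lung 1b the median was -4.37 and 6 passed DESeq2, where 110 of all 16327 genes tested were called lower. Without both 1b libraries the median was -3.82 and 2 passed (0.893% of all genes). Hbb-bs, a β-globin gene, was at 72.2, 1039 and 1129 CPM in blood and at 56.2, 314.7 and 30.0 CPM in lung, a log2 fold change of -2.54 ± 1.30 (SE) with an edgeR adjusted p of 0.9995. Blood 1a lay within the range of the lung libraries. DESeq2 called 0 lymphocyte genes. Cd79a, a part of the B cell receptor, was at 7.15, 4.50 and 19.9 CPM in blood and at 16.7, 11.4 and 10.9 CPM in lung. Cd3e, a part of the T cell receptor complex, was at 0 to 1.54 CPM in the 6 libraries. Of 20 B cell genes 7 were fitted lower in lung, with a median of 0.24. That median was -0.09 with 9 of 20 higher without lung 1b, -0.03 without both 1b libraries and 0.77 without blood 2. Of 22 T and NK cell genes 18 were fitted lower with a median of -0.42, which was -1.17 with 22 of 22 lower without lung 1b and 0.02 with 11 of 22 higher without blood 2.

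**Figure D3:**
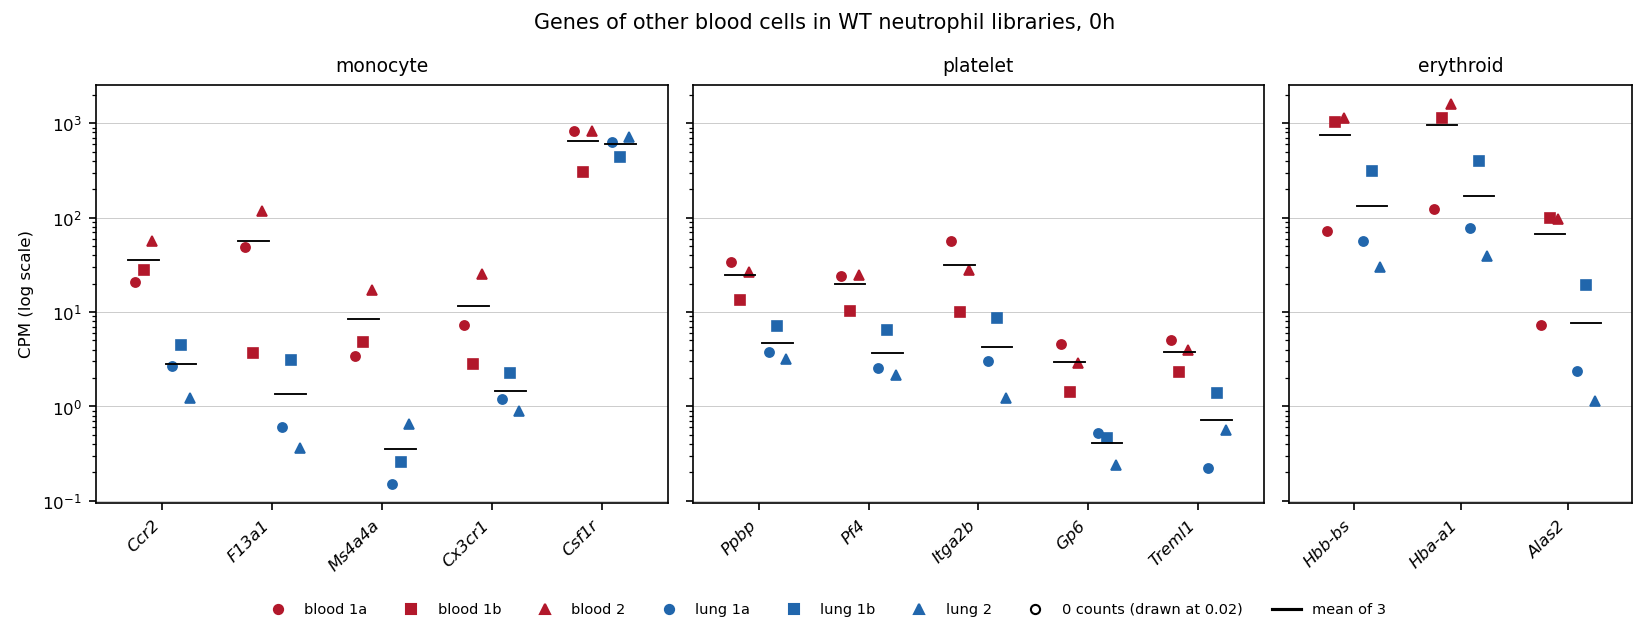
CPM on a log scale (y axis) of named genes of monocytes, platelets and red cells in the WT blood libraries (red) and WT lung libraries (blue) at 0h, with the library given by the shape, 0 counts by open symbols and the mean of 3 libraries by bars. Ccr2, Pf4 and Ppbp are lower in every lung library than in every blood library, and Csf1r and Hbb-bs overlap.

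Genes that define the neutrophil, and its integrins and homing receptors, mostly overlapped between the tissues. In the neutrophil identity list 14 of 20 members were fitted higher in lung with a median of 0.22, and 0 passed DESeq2. G0s2, a lipase inhibitor abundant in mature neutrophils, was the member with an unadjusted edgeR p under 0.05 and was at 438.3, 79.8 and 138.3 CPM in blood and 644.5, 662.2 and 446.9 CPM in lung. Its DESeq2 adjusted p was 0.501, and 0.00117 with the replicate block. The β2 integrin chain Itgb2 was at 2251, 754 and 1812 CPM in blood and at 1800, 1218 and 1597 CPM in lung. Its partners overlapped too: Itgam (αM) had a log2 fold change of 0.50 ± 0.25 (SE), Itgal (αL) of -0.08 ± 0.26, Itgax (αX) of 0.53 ± 0.18 and Itgad (αD) of -0.36 ± 0.64. Cxcr2, the receptor for the neutrophil-attracting chemokines, had 0.44 ± 0.35 (SE). None of these 6 genes passed any of the edgeR, DESeq2 or voom tests.

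Cxcr4, Icam1 and Ccrl2 were the 3 homing and adhesion genes whose libraries did not overlap. Cxcr4, the receptor for Cxcl12 that holds neutrophils in the marrow and is higher on aged neutrophils, was at 109.8, 69.3 and 73.7 CPM in blood and at 154.7, 200.9 and 213.8 CPM in lung. Its log2 fold change was 1.07 ± 0.28 (SE) by edgeR with an unadjusted p of 0.00703, and it missed the limit with a DESeq2 adjusted p of 0.0700. With the replicate block DESeq2 called it, at a log2 fold change of 1.08 and an adjusted p of 0.00691, and over the alternatives in DESeq2 the adjusted p ran from 0.00144 with files of sample 1 summed to 1.00 without lung 2. Icam1, an adhesion molecule, was at 26.8, 14.1 and 36.3 CPM in blood and at 44.2, 42.9 and 75.3 CPM in lung, with a DESeq2 adjusted p of 0.164, or 0.00950 with the replicate block. Of the 26 homing and adhesion genes, 17 were fitted higher, 4 of them with an unadjusted edgeR p under 0.05 against 1.48% of all genes, and the median was 0.22. Ccrl2 was the member called by DESeq2 without the block, against 0.175% of all genes. This chemerin-binding receptor was at 286.5, 46.6 and 180.6 CPM in blood and at 575.2, 1226 and 1052 CPM in lung, a log2 fold change of 2.53 ± 0.61 (SE) with a DESeq2 adjusted p of 0.00156 and an unadjusted edgeR p of 0.00436, and the DESeq2 call was lost with the replicate block (adjusted p 0.127).

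Among the neutrophil lists, the cytokine and chemokine list had the most members with an unadjusted edgeR p under 0.05. Of 30 genes 24 were tested, 20 were fitted higher in lung, 9 had an unadjusted edgeR p under 0.05 against 1.48% of all genes, 3 passed DESeq2 against 0.175%, and the median log2 fold change was 0.63. With the replicate block 7 passed DESeq2, against 0.426% of all genes. Il23a, the p19 chain of interleukin-23, was at 0.690, 0.0899 and 0.421 CPM in blood and at 7.13, 10.9 and 28.4 CPM in lung. edgeR fitted a log2 fold change of 5.15 ± 0.78 (SE), with a DESeq2 adjusted p of 3.47e-08 and an unadjusted edgeR p of 0.000327. Il1a, the interleukin-1α gene, was at 0.363, 0.989 and 0.168 CPM in blood and at 4.54, 7.42 and 12.8 CPM in lung, with a DESeq2 adjusted p of 0.00864. Cxcl1, a chemokine that attracts neutrophils through Cxcr2, was at 0.399, 0.180 and 0.716 CPM in blood and at 3.08, 3.04 and 11.3 CPM in lung, with a DESeq2 adjusted p of 0.00379. All 3 genes were near the detection limit in blood and separate in every lung library. The more abundant Cxcl2 was at 648.5, 162.0 and 724.5 CPM in blood and at 1135, 1216 and 1609 CPM in lung, a log2 fold change of 1.39 ± 0.43 (SE) with a DESeq2 adjusted p of 0.0974, or 0.00101 with the replicate block. Ccl3 and Cxcl10 did not overlap between the tissues either, and DESeq2 called them with the replicate block (adjusted p 4.49e-09 and 0.0489), while Tnf and Il1b had log2 fold changes of 0.60 ± 0.44 and 0.74 ± 0.37 (SE) with unadjusted edgeR p of 0.214 and 0.0876.

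Regulators of NF-κB signalling were called beside them. Tnfaip3, the deubiquitinase A20 that ends NF-κB signalling, was at 92.0, 19.1 and 91.2 CPM in blood and at 130.6, 304.0 and 361.3 CPM in lung, with a DESeq2 adjusted p of 0.0495, and the call was lost with the replicate block (adjusted p 0.352). Nfkbiz, a nuclear IκB protein, was at 210.0, 113.3 and 310.9 CPM in blood and at 401.8, 478.5 and 505.6 CPM in lung, with a DESeq2 adjusted p of 0.0180. Neither gene overlapped between the tissues, although blood 1b was the lowest library for both. Nfkbia, the first inhibitor that NF-κB induces, overlapped, at 813.2, 129.8 and 636.6 CPM in blood and 773.2, 806.0 and 1009 CPM in lung. Over the whole list of 28 genes 16 were fitted higher, 5 with an unadjusted edgeR p under 0.05 against 1.48% of all genes, and the median was 0.20. DESeq2 called 2 members against 0.175% of all genes, and 0 without lung 1b, or 3 with the replicate block against 0.426%.

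Immediate early genes, which respond within minutes to many stimuli including the handling of cells, were fitted higher in 25 of 30 cases, with a median of 0.29, and 8 did not overlap, against 3.53% of all genes. Egr1, a zinc finger factor of that class, was at 58.0, 109.3 and 219.4 CPM in blood and at 1149, 702.7 and 763.4 CPM in lung. Its log2 fold change was 2.65 ± 0.48 (SE) by edgeR, with a DESeq2 adjusted p of 4.38e-06 and an unadjusted edgeR p of 0.000996. Egr2 was at 9.62, 5.40 and 13.2 CPM in blood and at 26.9, 14.9 and 41.9 CPM in lung, with a DESeq2 adjusted p of 0.0608, or 0.00117 with the replicate block. Fos and Dusp1, of the same class, overlapped, with log2 fold changes of 0.15 ± 0.39 and 0.29 ± 0.56 (SE). The 6 members with an unadjusted edgeR p under 0.05, against 1.48% of all genes, were Egr1, Egr2, Egr3, Fosb, Maff and Btg2. Heat shock genes, which also respond to handling, were fitted lower in 12 of 18 cases with a median of -0.22, hypoxia and glycolysis genes had a median of -0.08, and interferon-stimulated genes had a median of -0.12. Without blood 2 the first 2 of these medians turned, to 0.12 with 10 of 18 heat shock genes fitted higher and to 0.17 with 18 of 27 hypoxia and glycolysis genes fitted higher. The hypoxia and glycolysis median also turned without lung 1b, to 0.04 with 14 of 26 fitted higher. DESeq2 called 0 members in these 3 lists, or 1 (Cxcl10) with the replicate block.

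**Figure D4:**
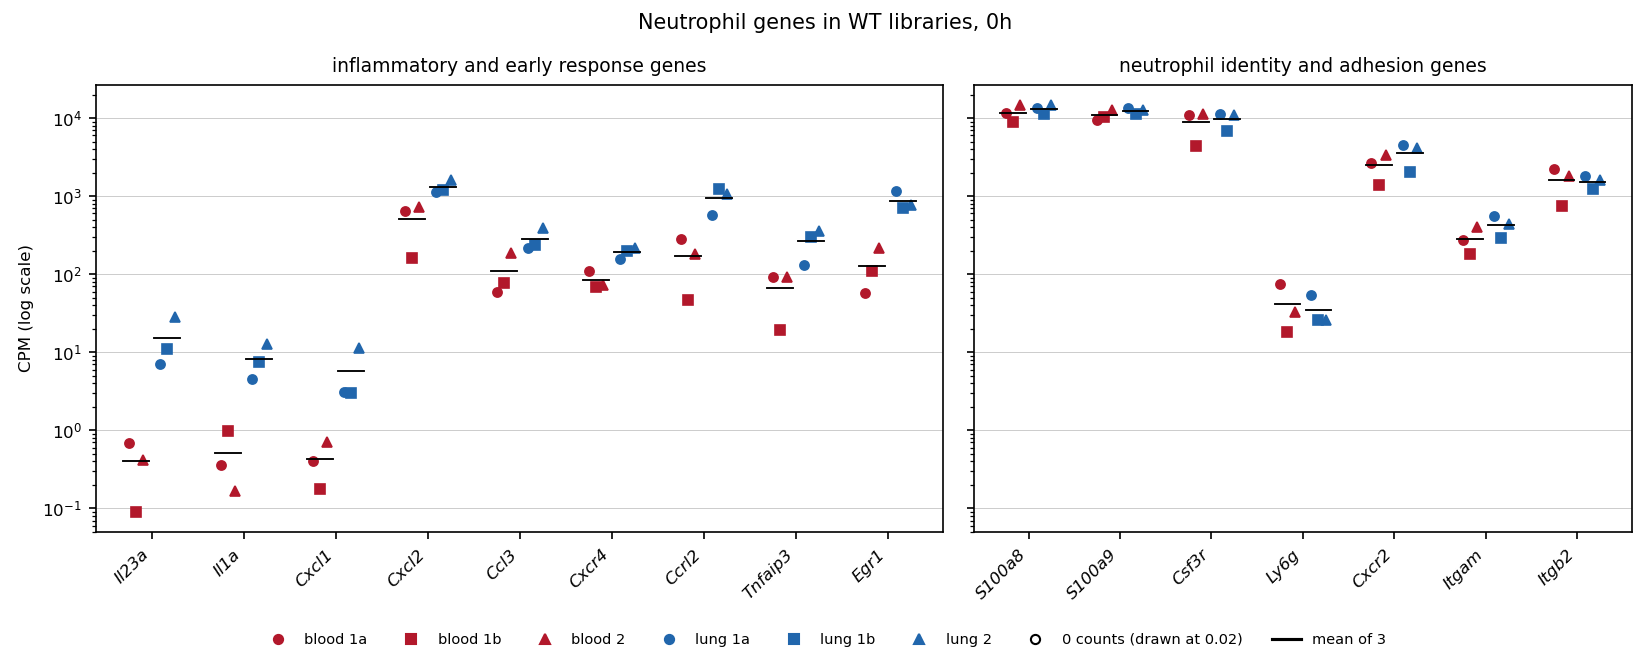
CPM on a log scale (y axis) of neutrophil genes in the WT blood libraries (red) and WT lung libraries (blue) at 0h, with the library given by the shape and the mean of 3 libraries by bars. Il23a, Il1a, Cxcl1, Cxcl2, Ccl3, Cxcr4, Ccrl2, Tnfaip3 and Egr1 are higher in every lung library than in every blood library, while S100a8, Csf3r and Itgb2 overlap.

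The cytokine genes with an unadjusted edgeR p under 0.05 and the core sets of lung-cell genes were mostly highest in different lung libraries. Of the 7 neutrophil-list genes called higher, 5 were highest in lung 2, as were 8 of the 9 cytokine genes with an unadjusted edgeR p under 0.05. Of all 28 genes called higher, 14 were highest in lung 2, 7 in lung 1a and 7 in lung 1b. Over the whole cytokine and chemokine list lung 1a and lung 2 were close, with sums of 18130, 12840 and 19080 CPM in lung 1a, 1b and 2. The monocyte and interstitial macrophage list was also highest in lung 2, at 1609, 1403 and 2181 CPM. The part of other cells in the cytokine values was not tested. In the core sets of surfactant, club cell and endothelial genes lung 2 was the lowest of the 3 lung libraries, with 16.6 CPM of surfactant genes against 76.1 and 48.9 CPM, and 10.2 CPM of club cell genes against 50.6 and 52.0 CPM. A sum of 8 endothelial core genes was 23.4 CPM in lung 2, against 35.2 and 107.8 CPM in lung 1a and 1b and 6.86 to 30.2 CPM in blood. Over the whole airway list lung 1b was the lowest instead, with sums of 3034, 1315 and 2666 CPM in lung 1a, 1b and 2, of which Hp, the haptoglobin gene, held 2967, 1224 and 2648 CPM. Blood 2 had 254.0 CPM of surfactant genes but 0.547 CPM of club cell genes, unlike the lung libraries, and had Il23a at 0.421 and Il1a at 0.168 CPM. The source of the Il23a and Il1a transcripts was not tested. These core sets were chosen after their values were seen. Without lung 2, Il23a still passed DESeq2 with a log2 fold change of 4.50 and an adjusted p of 0.0158, and 9 of the 28 genes called higher were kept.

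Promoter sequences are shown for 3 of the called inflammatory genes, because they hold a match to an NF-κB motif close to a RefSeq start site. The 250 bases before the start site were taken from RefSeq on GRCm38.p6 and are written from 5′ to 3′ on the strand of the gene, with the motif match in capitals. Cxcl1 (chr5:90890995-90891244, plus strand) has its match 70 bases before the start, Tnfaip3 (chr10:19015411-19015660, minus strand) 24 bases before and Ccrl2 (chr9:111057519-111057768, minus strand) 68 bases before. These distances hold for a single RefSeq entry of each gene. In the annotation of the counts Tnfaip3 starts at 19015657, so almost all of its printed bases lie within the gene. The other entries of Tnfaip3 and Ccrl2 hold no match to this motif.
Cxcl1: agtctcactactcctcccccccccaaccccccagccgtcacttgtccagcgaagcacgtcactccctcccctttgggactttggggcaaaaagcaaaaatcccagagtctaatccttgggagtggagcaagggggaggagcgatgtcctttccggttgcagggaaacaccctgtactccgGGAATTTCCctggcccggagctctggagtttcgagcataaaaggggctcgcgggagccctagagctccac
Tnfaip3: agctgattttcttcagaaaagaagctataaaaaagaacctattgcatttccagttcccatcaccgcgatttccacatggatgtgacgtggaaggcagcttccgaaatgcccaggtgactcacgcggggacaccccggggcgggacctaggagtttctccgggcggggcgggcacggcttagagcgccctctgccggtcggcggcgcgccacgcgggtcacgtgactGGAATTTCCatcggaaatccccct
Ccrl2: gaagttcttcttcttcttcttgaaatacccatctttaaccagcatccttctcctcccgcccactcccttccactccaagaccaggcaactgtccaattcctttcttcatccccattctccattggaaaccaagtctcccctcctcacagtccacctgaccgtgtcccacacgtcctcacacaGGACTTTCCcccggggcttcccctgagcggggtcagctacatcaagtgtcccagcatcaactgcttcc
The motif searched was GGANTTNCC on both strands, which 1035 of 32851 promoters of that length held (3.15%). Of the 28 genes called higher by DESeq2, 11 had a promoter entry, and of the 19 called lower, 15. The motif was held by 3 of 15 entries on the higher side (20%) and by 3 of 17 on the lower side (17.6%). The AP-1 motif TGANTCA was held by 2217 of 32851 promoters (6.75%), by 5 of 15 on the higher side (33.3%) and by 1 of 17 on the lower side (5.88%). Among the 7 neutrophil-list genes the search covered 4 (Ccrl2, Cxcl1, Il1a and Tnfaip3), and the promoters of Il23a, Egr1 and Nfkbiz were not analysed here. A match is a description of these letters, and several genes had more than 1 promoter entry.

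Granule genes of immature neutrophils differed more among libraries of the same tissue than between the tissues. Of 17 tested members 13 were fitted lower in lung with a median of -0.79, and 0 had an unadjusted edgeR p under 0.05. Ltf, the lactoferrin gene of secondary granules, was at 2091, 5.57 and 262.9 CPM in blood and at 386.5, 25.1 and 345.5 CPM in lung. Ngp, another secondary granule protein, was at 3441, 20.2 and 396.0 CPM in blood and at 648.0, 43.2 and 582.1 CPM in lung. The 1b libraries had the lowest values of both genes in each tissue.

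Transcripts of the mitochondrial genome were higher in WT lung neutrophils, although they made up a small share of all counts. That share was 0.029%, 0.082% and 0.041% in blood and 0.208%, 0.268% and 0.150% in lung. All 12 tested protein-coding mitochondrial genes were fitted higher in lung and did not overlap, 7 had an unadjusted edgeR p under 0.05 and 4 passed DESeq2 (mt-Co1, mt-Cytb, mt-Nd1 and mt-Nd4), or 9 with the replicate block. The shares of all genes on the higher side were 3.53%, 1.48% and 0.175%, or 0.426% with the block. Without blood 2 DESeq2 called 2 of the mitochondrial genes (0.0859% of all genes), and without both 1b libraries 8 (0.735%). mt-Cytb, the cytochrome b subunit of respiratory complex III, was at 51.3, 71.3 and 89.0 CPM in blood and at 545.3, 543.3 and 411.4 CPM in lung. edgeR gave a log2 fold change of 2.70 ± 0.35 (SE), with a DESeq2 adjusted p of 3.54e-12 and an unadjusted edgeR p of 0.000128. In the libraries labelled αD KO the mitochondrial share overlapped, at 0.053%, 0.066% and 0.219% in blood and at 0.94%, 0.139% and 0.303% in lung. All 13 genes tested there were fitted higher, 4 did not overlap (3.11% of all genes) and DESeq2 called 1 (0.353%). The mitochondrial set was chosen after its values were seen, so these counts are a description. The pseudogenes Gm28437 and Gm29216, also called higher, shared all and 97.2% of their words of 31 bases with mt-Co3 and mt-Co1, respectively, so their counts are uncertain. The club cell and endothelial genes were also higher in lung, and their part in the mitochondrial result was not tested.

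The remaining calls were genes of no list, several with strong separation. Gm37352, an unconfirmed transcript at chr8:84200869-84203049 on the plus strand, had the smallest adjusted p of both edgeR (0.57) and DESeq2 (1.27e-15). It was at 43.1, 21.3 and 28.2 CPM in blood and at 161.9, 123.6 and 162.3 CPM in lung, a log2 fold change of 2.17 ± 0.23 (SE). Hcar2, a receptor for niacin and hydroxybutyrate on neutrophils, was at 341.9, 159.7 and 481.4 CPM in blood and at 762.4, 987.3 and 1322 CPM in lung, with a DESeq2 adjusted p of 0.000465. Hilpda, a lipid droplet protein that hypoxia induces, was at 2.40, 0.719 and 3.79 CPM in blood and at 7.66, 19.6 and 20.8 CPM in lung, with a DESeq2 adjusted p of 0.00379. Tgm2, a transglutaminase, was at 49.6, 25.5 and 40.0 CPM in blood and at 81.6, 85.8 and 89.2 CPM in lung, with a DESeq2 adjusted p of 0.00107. Ciart, a repressor in the circadian clock, was at 8.78, 1.26 and 15.9 CPM in blood and at 28.3, 55.9 and 80.0 CPM in lung. Gm44292 lies within Mxd1, and D930030I03Rik is antisense to Adprh. Since the strand used in counting is not given in the sources used here, reads of these pairs cannot be told apart. Tgm2, Ciart and Il1a also overlap annotated neighbours. On the lower side, Zcchc14, Slc10a1, Ccdc96 and Abhd12b had no overlap between the tissues, with DESeq2 log2 fold changes of -2.13, -2.41, -2.25 and -1.89.

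The same site comparison in libraries labelled αD KO shared no library with the WT comparison. All 28 genes called higher in WT lung and all 19 called lower were fitted in the same direction there, against 48.2% and 51.8% of the 15259 genes tested in both that were fitted higher and lower. DESeq2 called 67 genes higher (0.353%) and 41 lower (0.216%) of 19000 tested in the libraries labelled αD KO, and 6 of the 28 and 7 of the 19 were among them. The 3 lung values lay above the 3 blood values for 17 of the 28, against 3.11% of all genes tested, and below them for 6 of the 19, against 3.51%. The median over all genes tested was 0.03. Scgb1a1 was at 0, 0.352 and 1.30 CPM in blood and at 698.6, 134.2 and 29.6 CPM in lung of these mice, and Il23a was at 0.841, 0.422 and 0.333 CPM in blood and at 14.1, 10.3 and 85.7 CPM in lung. Lung 2 of this group stood apart, with Tnfaip3 at 3199 CPM against 104.3 and 193.0 CPM, and Ccrl2 at 3835 CPM against 483.4 and 582.5 CPM. Other lists stood apart in the same library, with a sum of 100100 CPM over the immature neutrophil granule list against 32670 and 6575 CPM in lung 1a and 1b, and of 11180 CPM over the alveolar macrophage list against 1591 and 348.5 CPM. Chil3, which both lists hold, was at 11000 CPM there against 1317 and 60.2 CPM, and the part of these genes in the inflammatory values was not tested. Without that library all 47 genes kept their direction, and DESeq2 called 7 of the 28 and 1 of the 19.

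Lung-cell and blood-cell lists also had their counterparts in the libraries labelled αD KO. No blood library there reached the lung libraries in surfactant genes, whose sum was 1.18 to 3.59 CPM in blood and 34.6 to 86.4 CPM in lung, and Sftpc had a DESeq2 adjusted p of 2.08e-05. Of 22 alveolar genes tested 20 were fitted higher in lung and 5 called, and of 29 endothelial genes 25 were fitted higher and 9 called, against 0.353% of all genes. Of 20 platelet genes 19 were fitted lower and 14 called, against 0.216% of all genes. All 20 B cell and all 22 T and NK cell genes tested were fitted lower, with medians of -2.72 and -3.35 and 0 called. Blood 2 of this group had the highest lymphocyte list sums, at 3900 CPM for B cells and 829 CPM for T and NK cells against 151.7 to 886.5 CPM and 23.1 to 57.7 CPM in the other 5 libraries. It also had the highest Ccr2 of the blood libraries, at 293.4 CPM against 40.0 and 2.67 CPM, while the sum of the monocyte list was higher in lung 2 (4654 CPM) than in blood 2 (4316 CPM). Egr1 did not separate the tissues, at 84.5, 697.5 and 20.7 CPM in blood and 376.9, 394.5 and 613.7 CPM in lung. By a test of the difference between the genotypes, 0 of 26293 genes passed in edgeR, DESeq2 or voom, and 108 had an unadjusted edgeR p under 0.05, among them 1 of the 28 and 2 of the 19.

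**Figure D5:**
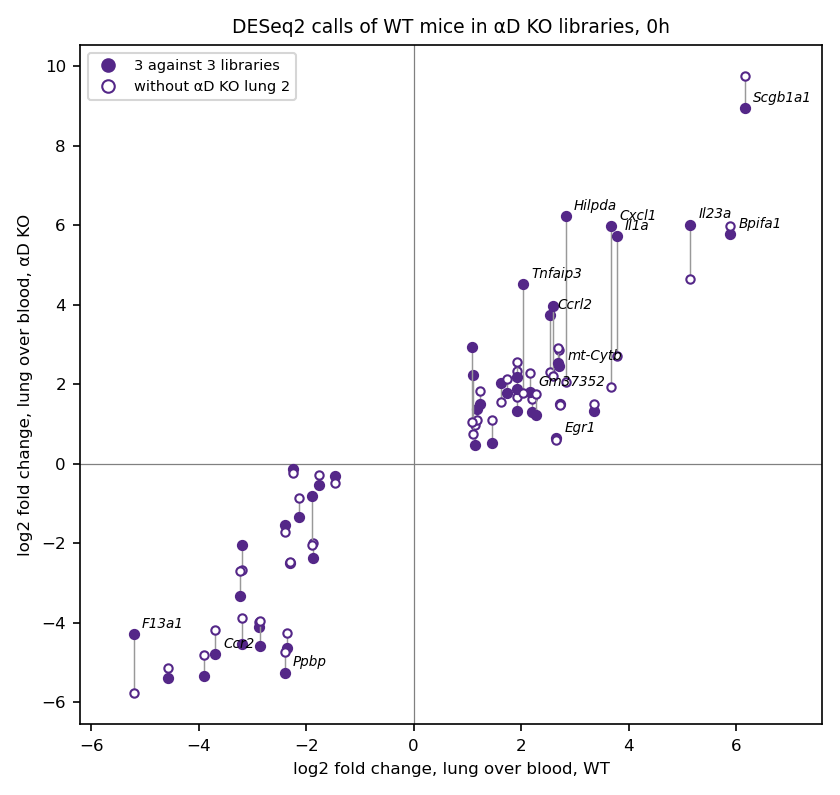
Log2 fold change of lung over blood in WT libraries (x axis) and in libraries labelled αD KO (y axis), both by edgeR at 0h, for the 47 genes called by DESeq2 in WT, from all libraries (filled) and without αD KO lung 2 (open). All 47 genes lie on the same side of 0 in both groups, and the genes joined by long lines, such as Tnfaip3, Hilpda, Cxcl1 and Il1a, move most without that library.

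By DESeq2 the site difference of 5 of these genes was not the same at 12 hours after CLP as at baseline, and edgeR called none. The genes had been chosen on the same WT libraries at 0h that enter this comparison, so that a smaller difference at 12 hours is in part fixed by that choice. In a test of the change in site difference across 23497 genes edgeR called 0 and DESeq2 called 107, while 1290 had an edgeR p below 0.05 before adjustment. Among the baseline genes DESeq2 called Gm37352, mt-Nd4 and mt-Cytb of the 28, and Slc10a1 and Ccdc96 of the 19. mt-Cytb was at 478.6, 230.2 and 399.1 CPM in blood and at 571.3, 249.4 and 559.3 CPM in lung at 12 hours, where the tissues overlapped (interaction -2.50, DESeq2 adjusted p 0.000132). Gm37352 was at 1.98, 2.96 and 3.69 CPM in blood and at 65.9, 36.2 and 97.9 CPM in lung at 12 hours, a wider gap than at baseline (interaction 2.28, DESeq2 adjusted p 0.000230). Il23a still separated the tissues, at 0.408, 0.0502 and 0.766 CPM in blood and at 54.7, 6.0 and 187.3 CPM in lung, and the change in its site difference had a DESeq2 adjusted p of 0.408.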

How the data were processed

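RNA was measured in neutrophils sorted as Ly6G+, CD11b+ and CD45.2+ cells, with SMART-Seq v4 cDNA and Nextera XT libraries. Per the labels, the authors trimmed reads with Trimmomatic 0.36 and aligned them with STAR 2.5.2b to GRCm38, and the deposited values are raw counts of unique exon reads for 49315 genes. The strand setting of counting is not given in the sources used here. Files 1a and 1b of a sample differed by more than sampling noise (chi-square per degree of freedom at least 43.8 between files of a group), so they were not the same library deposited in duplicate, although separate preparations of 1 sample would also exceed that noise. Each file was taken as 1 library, and files of sample 1 summed were an alternative.

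WT lung and blood libraries at 0h were fitted alone in edgeR 4.0.16 (R 4.3.3) with TMM factors and filterByExpr. A gene counted as called where its p, adjusted by Benjamini-Hochberg, was below 0.05 and its log2 fold change was above 1 in either direction. DESeq2 1.42.0, the tool of the study, and limma 3.58.1 voom were alternatives. DESeq2 gave no adjusted p for 1755 genes, which stayed uncalled. CPM are counts per 1000000 counts of a library, and counting precision is lowest in blood 1b, which had the fewest counts. TMM factors were 1.933 and 1.47 in the 1b libraries and 0.936 to 1.045 in the other 4. The fits were also run on simulated counts, drawn independently for each library and so without the shared deviations of the 1b libraries. The outcome is not reported here.

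The 20 gene lists were written from general knowledge, and the genes and lists were chosen with earlier results of these data known. Since edgeR called no gene, the rule for named genes left only its fixed marker genes (1 of them is not reported here), and other named genes were chosen after their values were seen. The same library number may pair WT lung and blood, as their deviations from the group means correlated (r of 0.445, 0.749 and 0.109), so a fit with the number as a block was run. The pairing is weak for lung 2, which correlated more with blood 1a (0.595) than with blood 2, and lung 1a had 0.153 with blood 2. In the libraries labelled αD KO these were -0.023, 0.72 and 0.552, so that 1b and 2 correlated with their own number and 1a did not. Among same-number pairs 1b had the highest r in both genotypes. Whether the number marks the animal or the preparation was not tested. Alternatives were RLE factors, other count filters, each library left out, both 1b libraries left out, summed files, all groups in 1 fit and TMM without genes of other cells. Promoters and motifs were read from RefSeq on GRCm38.p6.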

Additional observations from a re-analysis of the deposited data

How the results depend on the processing

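edgeR called 0 genes in the WT comparison under every alternative run, the replicate block included, whereas DESeq2 called 47, limma voom 16, DESeq2 with each library left out 11 to 157, DESeq2 without the 1b libraries 237, DESeq2 with a replicate block 114 and DESeq2 with the files of sample 1 summed 123. The DESeq2 alternatives other than the plain fit were added after seeing the data. Leaving out blood 1b or lung 1b raised the DESeq2 count and leaving out any of the other 4 libraries lowered it. For the libraries labelled αD KO, edgeR called 0 genes, 62 without a count filter and up to 16 with 1 library left out (0 to 392 over both tools, where 16 was without blood 1b). DESeq2 called 108 there, 351 without 1b libraries, 212 with a replicate block (where the 1a files did not correlate) and 249 with files summed. The genotype difference stayed at 0 throughout. The change in site difference after CLP gave 0 calls in edgeR, 4 without a filter, 107 in DESeq2, 2631 in voom, 1167 without 1b libraries and 0 to 176 with 1 library left out, the highest without WT lung 1b at 12 hours. The cause was not tested.

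Of the 47 genes called by DESeq2 none changed sign. Of the fixed marker genes 13 did, all of them uncalled in edgeR. With 1 library left out, log2 fold changes ranged from -0.67 to 0.38 for Ly6g, -0.01 to 0.31 for S100a9, -0.13 to 0.39 for Csf3r, -0.24 to 0.17 for Itgal, -0.33 to 0.22 for Itgb2, -1.54 to 4.85 for Sftpc, -0.24 to 2.87 for Cdh5, -1.58 to 0.47 for Vwf, -1.10 to 1.62 for Ager, -0.46 to 1.54 for Col1a1, -3.08 to 0.72 for C1qa and -0.75 to 0.96 for Cd3e. With the replicate block, Sftpc was at 2.84 (3.71 by DESeq2) and Ager at 0.37 (0.47 by DESeq2). voom gave 0.12 for Ly6g, -0.27 for Cd79a and -0.22 for Cd3e, DESeq2 with summed files -0.02 for Cd79a, DESeq2 without 1b libraries -0.02 for Csf3r, and no count filter 0.03 for Itgal. The block also gave DESeq2 1 call each in the alveolar epithelium list (Emp2) and the alveolar macrophage list (Car4), and 2 in the fibroblast list (Mgp higher and Fn1 lower), where there had been 0. Blood 1b had the lowest depth, and without it edgeR called 0 and DESeq2 138 genes.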
